A study of Mus musculus with 12 samples.

Results

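The genes described here are the expressed long non-coding RNA (lncRNA) genes of cultured primary mouse hepatocytes. A gene was a member when its GENCODE mouse biotype was lncRNA, lincRNA, antisense, sense_intronic, sense_overlapping, bidirectional_promoter_lncRNA or processed_transcript and its mean over the 12 libraries reached 3 CPM. CPM is the unstranded read count of a gene divided by all gene-assigned counts of its library, times 1000000. Pseudogenes were not included. Of 9906 lncRNA genes in the annotation, 3770 had at least 1 count and 132 met the rule. Members were chosen by their measured mean level over all libraries, so that the levels are a description. For 18 members the mean of the other 3 groups was below 3 CPM, so that they met the rule through their highest group, and their differences from that group are not independent of the choice. Among those described below these are 2310034O05Rik, Gm17753, Gm34059, 9030625G05Rik, Gm46516, A730020M07Rik, Gm11789 and AC160336.1. All 132 members passed the filter on low counts and were tested. Just inside the limit lay Gm36251 (3.00 CPM), Gm36026 (3.02 CPM) and 2010320M18Rik (3.02 CPM), and just outside it 2900005J15Rik (2.99 CPM), Gm20186 (2.98 CPM) and 1700001L05Rik (2.91 CPM).

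The libraries fell into 4 groups of 3. The Control group had neither a pretreatment nor FAC, and the FAC group received FAC, an abbreviation that the labels do not expand. The Lip-1+FAC group was first given liproxstatin-1, labelled as a scavenger of lipid reactive oxygen species, and the MT+FAC group Mito-TEMPO, labelled as a scavenger of mitochondrial reactive oxygen species, on day 2 of culture, and both then received FAC. No group had a scavenger without FAC, and strain, age, dose and exposure time are not given in the sources used here. The labels do not say that replicates came from separate cultures or animals, so that p-values measure the spread between these libraries, which may be technical.

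An lncRNA is a transcript longer than a small RNA that is not known to be translated. Some act in the nucleus as scaffolds, as Neat1 does for the bodies called paraspeckles. Others carry small nucleolar RNAs (snoRNAs, guides of RNA modification) or microRNAs in their introns or exons, and their spliced product is then often degraded during translation by nonsense-mediated decay. Many more lie across from a protein-coding gene or share its start region, and the function of most is not known.

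Several members are recognised by short sequence elements, which are shown here because the results below turn on these genes. The primary transcript Mir22hg contains miR-22, and Dleu2 contains miR-15a and miR-16. Their mature forms are given from RefSeq (GRCm38.p6), 5′ to 3′, with the seed, bases 2 to 8, in capitals. All 4 names searched were matched. The seed of miR-15a-5p and miR-16-5p is shared, and the other seeds are not shared within this group.
mmu-miR-22-5p (chr11:75463734-75463755, + strand): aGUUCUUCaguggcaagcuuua
mmu-miR-22-3p (chr11:75463772-75463793, + strand): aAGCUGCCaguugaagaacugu
mmu-miR-15a-5p (chr14:61632075-61632096, - strand): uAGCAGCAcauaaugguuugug
mmu-miR-16-5p (chr14:61631936-61631957, - strand): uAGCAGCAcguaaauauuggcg

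Host genes of snoRNAs are known for starts that lie in a run of pyrimidines (C or T), a feature they share with ribosomal protein genes. The annotated start with 20 bases before and 20 after it is shown for 6 of the 13 hosts, from RefSeq (GRCm38.p6), with the longest run of C or T that reaches within 10 bases of the start in capitals. Of the 11 hosts found in the RefSeq promoter table, 5 had a run of at least 6 bases there, against 30.0% of all 32851 windows. Gas5, at the end of the list, had a run of 3. The RefSeq start differed from the GENCODE start by 12 bases in Snhg1, 32 in Snhg5 and 179 in Gas5, and by 0 in the other 3.
2410006H16Rik (chr11:62602857-62602897, + strand): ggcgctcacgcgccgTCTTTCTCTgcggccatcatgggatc
Snhg1 (chr19:8723467-8723507, + strand): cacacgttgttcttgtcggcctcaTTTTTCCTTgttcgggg
Snhg5 (chr9:88522877-88522917, - strand): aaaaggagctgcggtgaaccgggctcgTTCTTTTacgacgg
1110038B12Rik (chr17:34952451-34952491, - strand): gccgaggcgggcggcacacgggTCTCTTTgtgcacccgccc
AI506816 (chr5:23712647-23712687, - strand): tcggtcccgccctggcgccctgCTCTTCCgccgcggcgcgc
Gas5 (chr1:161034581-161034621, + strand): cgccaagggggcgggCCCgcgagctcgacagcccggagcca

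The 3 nuclear or cytoplasmic regulators Neat1, Malat1 and 2900097C17Rik (the mouse counterpart of NORAD) were read from the GENCODE transcripts of GRCm38. Neat1 has a short isoform of 2 exons (3004 bases) that ends after a polyadenylation signal, and a long isoform of 1 exon (20771 bases) that is known to be cut by an enzyme and to end in a run encoded by the genome. Their last 60 bases are shown with AATAAA and AAAAAGCAAAA in capitals. Of 141515 transcripts, 27.2% held the first motif in their last 60 bases, and 54 (0.0382%) the second. Near the end of the Malat1 transcript (6983 bases) a T-rich stretch, TTTTTCTTTT, and a run of 12 A are shown in capitals, since these are known to pair in the protective end of the mature RNA. The run of A was followed by 298 bases in the annotated transcript. Of 1659 longest transcripts of at least that length, searched over the same number of first bases, 14.3% held the T-rich motif and 19% such a run of A. NORAD is known for binding Pumilio proteins, whose element TGTANATA occurred 11 times in the 2900097C17Rik transcript (4915 bases). Over the first 4915 bases of the 4380 longest transcripts of at least that length, 34.9% held the element once or more, the median was 0 and the most was 15. The 2 that held at least 11 included 2900097C17Rik itself. The first 4 matches are shown. Transcripts were searched on their own strand.
Neat1 short isoform end (chr19:5842307-5842366, - strand): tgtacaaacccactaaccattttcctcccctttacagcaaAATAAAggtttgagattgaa
Neat1 long isoform end (chr19:5824708-5824767, - strand): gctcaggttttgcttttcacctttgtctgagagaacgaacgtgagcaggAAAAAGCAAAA
Malat1 stretch (chr19:5795978-5796072, - strand): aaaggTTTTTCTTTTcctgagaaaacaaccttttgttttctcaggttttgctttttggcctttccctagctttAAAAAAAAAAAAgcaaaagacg
2900097C17Rik match 1 (chr2:156392313-156392338, - strand): gaagtcctgTGTATATAatatgaaaa
2900097C17Rik match 2 (chr2:156391817-156391842, - strand): taaacatgcTGTAAATAcctttttgt
2900097C17Rik match 3 (chr2:156391628-156391653, - strand): gcttttcttTGTACATAgtgtatgta
2900097C17Rik match 4 (chr2:156391441-156391466, - strand): tgactgctgTGTATATAgtggacaac

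The members comprised 57 lincRNAs, 41 processed transcripts, 24 antisense genes, 6 bidirectional-promoter lncRNAs and 4 sense-intronic genes. By position and content each member was put into the first class that applied. In this order, 13 contained an annotated snoRNA or a related Cajal-body RNA, 3 a microRNA, 29 of the rest started within 1 kb of a protein-coding start on the other strand, 24 of those left overlapped a protein-coding gene on the other strand, 6 overlapped one on the same strand and 57 did none of these. Counted without this order, 33 members started within 1 kb of such a start, 46 overlapped a coding gene on the other strand and 10 overlapped one on the same strand. RefSeq listed 97 of the 132 as lncRNA, 16 as protein-coding, among them Cct6a, and 3 as a pseudogene or transcribed pseudogene, and 16 were not matched. At least 10% of the exonic bases were shared with another gene for 30 members. For 6, a transcript of another gene held a near-identical sequence, and the counts of all these members are uncertain. These 6 were 2900097C17Rik with Gm7292, Gm10076 with Rpl41, Ptpmt1 with Kbtbd4, Gm42031 with Gm43305, 1110002L01Rik with Kif3c, and C4a with C4b. The search did not leave out genes that overlap a member, so that a match can be the same stretch of genome and not a second copy. Kbtbd4 overlaps Ptpmt1 on the other strand. Of the exonic bases of Ptpmt1 52.3% are shared with other genes, and of those of 1110002L01Rik 67.1%. The counting did not use strand, so that reads of an antisense gene and of its overlapping partner cannot be told apart where they overlap.

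Member levels were low. The mean ranged from 3.00 CPM over a median of 6.04 to 523 CPM, 53 members lay between 3 and 5 CPM, and 41 reached 10 CPM. The lowest library of a member held between 14 and 6523 counts, with a median of 96. The 8 members of highest mean CPM were Neat1, Cct6a, 2900097C17Rik, Gm43305, AI506816, Gas5, Malat1 and 1810058I24Rik. Per kb of exonic sequence the order was different. Gm10076, a near-copy of the ribosomal protein gene Rpl41, led with 140 CPM per kb, followed by Cct6a with 79.8, Gm15564 with 61.8 and 2410006H16Rik with 43.7 CPM per kb. Neat1 had 25.2 CPM per kb.

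In FAC against Control the called share of the members, 47.0%, was near that of all genes of at least that level. A gene was called when its edgeR quasi-likelihood p-value, adjusted by Benjamini-Hochberg over all 13535 genes tested, was under 0.05. In FAC against Control 62 of 132 members were called, 23 higher and 39 lower. The background was 36.6 percent of all genes tested and 44.7 percent of the 9829 genes with a mean of at least 3 CPM, with 21.2 percent higher and 23.4 percent lower among the latter. The median log2 fold change of the members was -0.10, against -0.01 over all genes tested. Of the called members, 14 changed by 1 or more on the log2 scale (10.6% of the members, background 5.62 percent of all genes tested and 3.44 percent of genes at 3 CPM or more). The libraries of both groups did not overlap for 73 members (55.3%), where the background was 46.5 percent of all genes tested and 53.5 percent of genes at 3 CPM or more.

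Against FAC alone the called share of the members, 50.8% with Lip-1+FAC and 52.3% with MT+FAC, was near that of all genes at 3 CPM or more. In Lip-1+FAC against FAC 67 members were called, 36 higher and 31 lower (background 39.9 percent of all genes tested and 47.4 percent of genes at 3 CPM or more, of which 25.7 percent higher and 21.7 percent lower). In MT+FAC against FAC 69 members were called, 29 higher and 40 lower (background 40.9 percent and 48.9 percent, with 26 percent higher and 22.9 percent lower among genes at 3 CPM or more). Their median log2 fold changes were -0.08 and -0.11, against 0.00 and -0.00 over all genes tested. Members at 3 CPM or more in their lowest group, 94 of the 132, were called at 50% in FAC against Control, 48.9% in Lip-1+FAC against FAC and 54.3% in MT+FAC against FAC. The FAC libraries are shared by these comparisons, so that the values of a member are given side by side in what follows.

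**Figure D1:**
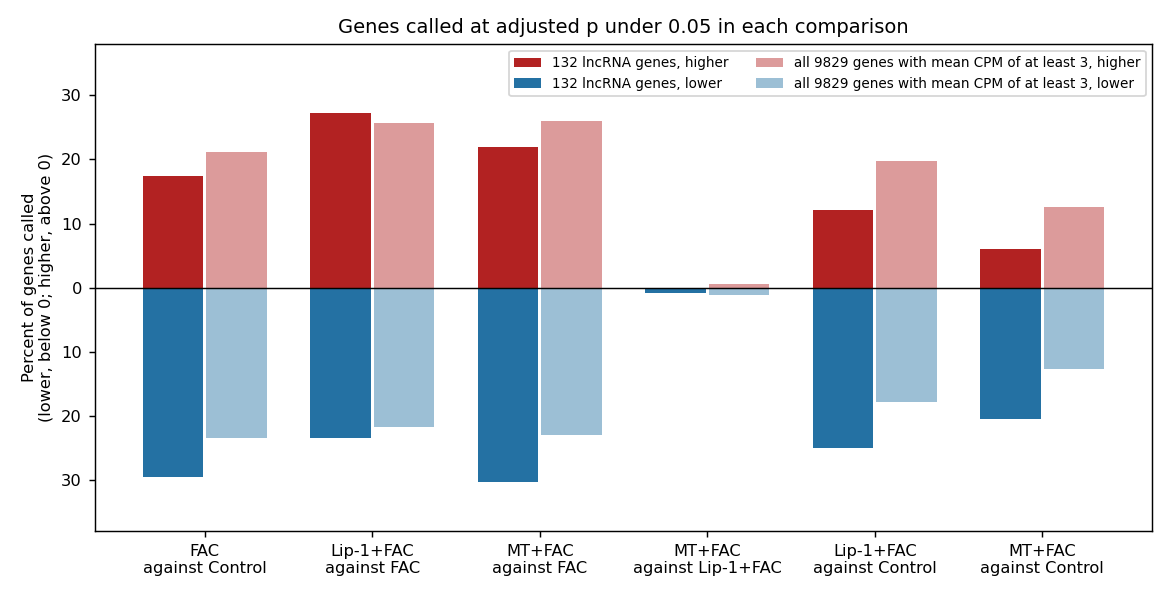
Percent of the 132 members and of the 9829 genes with a mean of at least 3 CPM that were called higher (bars above 0) or lower (bars below 0) in each of 6 comparisons. The bars below 0 are longer for members than for all such genes in every comparison except that between the pretreatments, where both are near 0.

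Against Control the pretreated groups had more members lower than higher. In Lip-1+FAC against Control 49 members were called, 16 higher and 33 lower (background 30.2 percent of all genes tested, and 37.6 percent of genes at 3 CPM or more, with 19.7 percent higher and 17.9 percent lower). In MT+FAC against Control 35 members were called, 8 higher and 27 lower (background 19.8 percent and 25.2 percent, with 12.5 percent higher and 12.7 percent lower). Without MT+FAC replicate 1 the latter count was 23. The median log2 fold changes of the members were -0.14 and -0.19, against -0.02 and -0.00 over all genes tested. The group with the highest mean was Control for 51 members, FAC for 46, Lip-1+FAC for 24 and MT+FAC for 11, or 38.6%, 34.8%, 18.2% and 8.33%, against 27.9%, 32.1%, 20.5% and 19.5% of all genes tested. The lowest mean was in FAC for 49 members, in MT+FAC for 37, in Lip-1+FAC for 27 and in Control for 19, or 37.1%, 28.03%, 20.5% and 14.4%, against 36.0%, 14.5%, 24.8% and 24.7% of all genes tested.

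**Figure D2:**
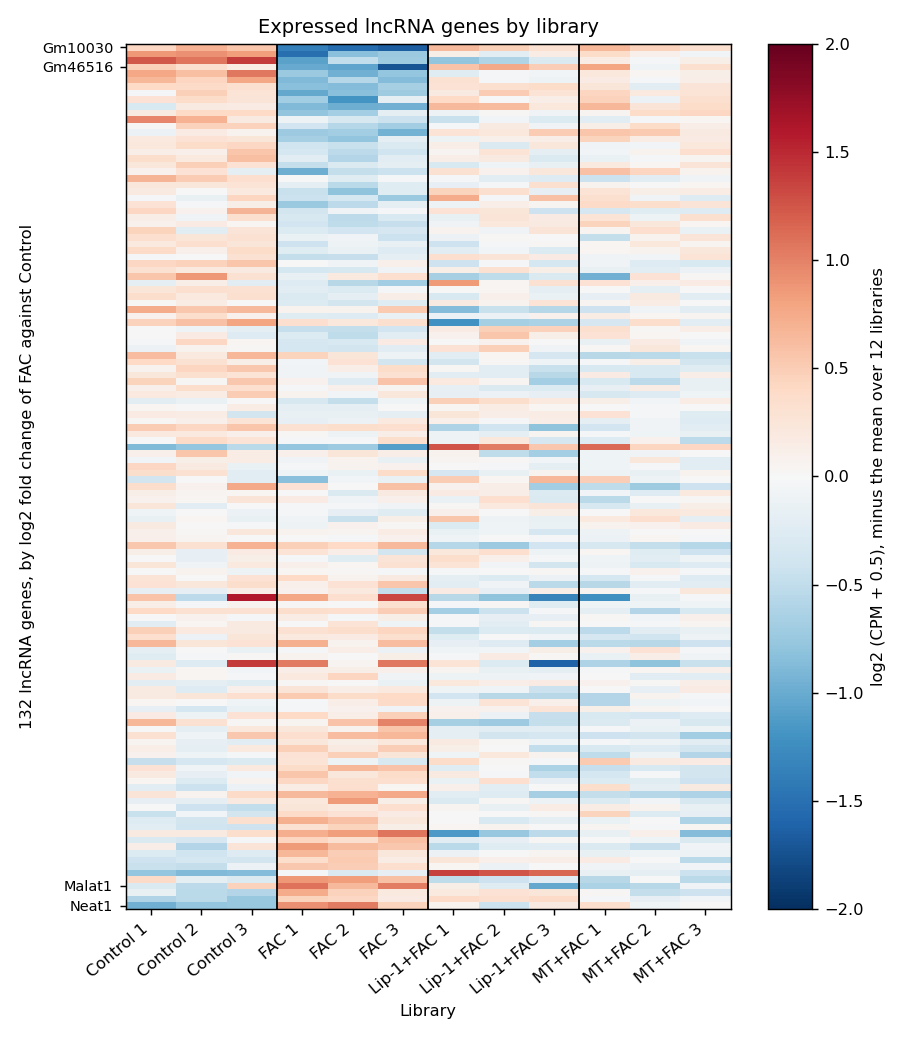
Heat map of the 132 members (rows) in the 12 libraries (columns), as log2(CPM + 0.5) minus the mean over libraries, ordered by the log2 fold change of FAC against Control from Gm10030 to Neat1. At the Gm10030 end the 3 FAC columns are low and the pretreated columns are mostly above FAC, and at the Neat1 end the FAC columns are high.

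The members held a larger share of the counts in FAC, and without Neat1 the shares of Control and FAC were close. All members together held 0.262% ± 0.0101 of gene-assigned counts in Control, against 0.317% ± 0.0122 with FAC, 0.260% ± 0.00687 with Lip-1+FAC, and 0.260% ± 0.00789 with MT+FAC (SD, n = 3). Every FAC library lay above every other library. The exact two-sided permutation test gave p = 0.1 for FAC against each other group, the smallest p that 3 against 3 libraries allow. Neat1 alone rose from 0.0269% to 0.0845% of the counts, and without it the share was 0.235% in Control and 0.233% in FAC (exact permutation p = 0.8). The share without Neat1 was lower in both pretreated groups, 0.213% with Lip-1+FAC and 0.208% with MT+FAC, where every library lay below every Control and FAC library (exact permutation p = 0.1 for each). With Neat1 included, the pretreated groups and Control overlapped (exact permutation p = 0.7 for each). In bulk samples fewer cells of a type and less RNA per cell cannot be told apart.

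Neat1, the scaffold of paraspeckles, had the largest rise among members. The gene (ENSMUSG00000092274) lies on the - strand at chr19:5824708-5845478, and its deposited count does not separate the isoforms shown above. Its level was 246, 279 and 282 CPM in Control, against 898, 985 and 653 CPM with FAC, 500, 353 and 539 CPM with Lip-1+FAC, and 609, 448 and 478 CPM with MT+FAC. The 4 groups fell into 3 levels: FAC above both pretreated groups, these above Control, and the pretreated groups overlapping each other. The fitted rise was 1.67 on the log2 scale (SE 0.204, edgeR adjusted p = 0.000203), a 3.18-fold rise in FAC. Against FAC it fell by 0.87 in Lip-1+FAC (adjusted p = 0.00757) and by 0.75 in MT+FAC (adjusted p = 0.015). Both pretreated groups stayed above Control, by 0.80 and 0.92 on the log2 scale (adjusted p = 0.0152 and 0.0121). The nearest protein-coding start, that of Frmd8, lies 29796 bases away.

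Malat1, a nuclear lncRNA of splicing speckles that neighbours Neat1 on chromosome 19 (ENSMUSG00000092341, chr19:5795690-5802672, - strand, 1 exon), was also highest in FAC but varied more between replicates. It had 50.7, 43.2 and 86.2 CPM in Control, against 132, 98.2 and 127 CPM with FAC, 67.6, 52.5 and 30.2 CPM with Lip-1+FAC, and 40.1, 42.3 and 59.0 CPM with MT+FAC. No FAC library overlapped any other group. The log2 fold change in FAC against Control was 1.00 (SE 0.345) with an edgeR adjusted p of 0.0506, so that it was not called. It was called without Control replicate 3, whose level was the highest of its group (log2 fold change 1.36, adjusted p = 0.0188), and under 5 of the other settings tried. Against FAC it was 1.25 lower in Lip-1+FAC (adjusted p = 0.0204) and 1.36 lower in MT+FAC (adjusted p = 0.0135). The first of these calls was lost without FAC replicate 1, FAC replicate 3, Lip-1+FAC replicate 2 or Lip-1+FAC replicate 3 (adjusted p = 0.0598, 0.052, 0.0534 and 0.0519), and the second without MT+FAC replicate 1 (adjusted p = 0.0516). The share of reads outside annotated features was also highest in FAC, at 2.92% to 3.14%, against 2.27% to 2.56% in the other groups together, and its part in the levels of Neat1 and Malat1 was not tested.

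2900097C17Rik, the counterpart of NORAD, a mainly cytoplasmic RNA that binds Pumilio proteins, with the Pumilio elements shown above (chr2:156388065-156392979, - strand), had 145.6, 147.4 and 142.4 CPM in Control, against 172, 168 and 154 CPM with FAC, 194, 184 and 189 CPM with Lip-1+FAC, and 178, 171 and 184 CPM with MT+FAC. Every treated library lay above every Control library, and the rise was small, 0.20 in FAC (SE 0.0555, edgeR adjusted p = 0.00875), 0.40 in Lip-1+FAC (adjusted p = 3.44e-05) and 0.29 in MT+FAC (adjusted p = 0.00162) on the log2 scale. Gm7292 has a near-identical sequence over 51.6% of its longest transcript, so that these counts are uncertain.

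Tug1, an lncRNA linked to chromatin repression, starts 482 bases from Morc2a on the other strand (chr11:3639785-3649673, - strand). It had 37.8, 35.3 and 33.1 CPM in Control, against 27.1, 26.7 and 28.6 CPM with FAC, 42.1, 52.1 and 51.9 CPM with Lip-1+FAC, and 46.9, 38 and 41.3 CPM with MT+FAC. The FAC libraries lay below all others and the Lip-1+FAC libraries above all Control libraries. On the log2 scale the difference was -0.35 in FAC against Control (SE 0.0958, edgeR adjusted p = 0.00813), 0.82 in Lip-1+FAC against FAC (adjusted p = 2.34e-06) and 0.59 in MT+FAC against FAC (adjusted p = 9.38e-05). Morc2a, a gene of chromatin silencing, rose by 0.41 in FAC (adjusted p = 0.0105) and 11.6% of the exonic bases of Tug1 are shared. Firre, an X-linked lncRNA of nuclear organisation, and Pvt1, the neighbour of the oncogene Myc, were not called in any comparison and had log2 fold changes of 0.13 and 0.16 in FAC. Of the 6 members on the list of nuclear and chromatin lncRNAs, which also holds 2900097C17Rik, 2 rose and 1 fell in FAC, 2 rose and 2 fell in Lip-1+FAC against FAC, and 1 rose and 2 fell in MT+FAC against FAC. In FAC and in Lip-1+FAC against FAC, 1 of the 2 that rose was 2900097C17Rik. With 6 genes, these shares (50%, 66.7% and 50%) stand beside 44.7 percent, 47.4 percent and 48.9 percent of genes at 3 CPM or more.

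**Figure D3:**
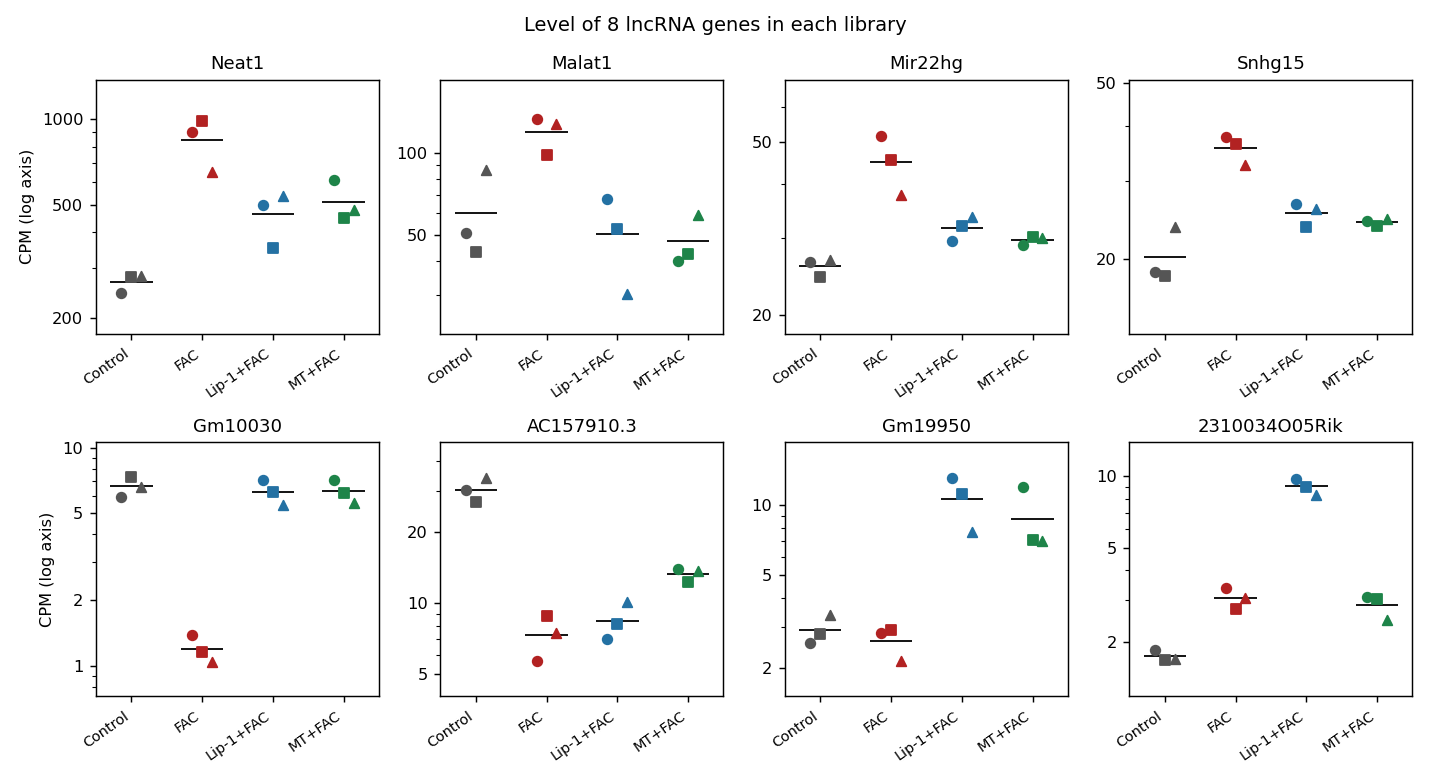
CPM (log axis) of 8 members in each library, by group, with marker shapes for replicate 1 (circle), 2 (square) and 3 (triangle) and a black line at the group mean. Neat1, Malat1, Mir22hg and Snhg15 are highest in FAC, Gm10030 and AC157910.3 fall in FAC and differ in how they stand in the pretreated groups, Gm19950 is high in both pretreated groups, and 2310034O05Rik is high in Lip-1+FAC only.

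Of 11 listed paraspeckle proteins, which are known to assemble on Neat1, all were tested, and 0 were higher and 1 was lower in FAC against Control, where 36.6 percent of all genes tested were called. The lower one was Nono, an RNA-binding core protein, at 165, 163 and 159 CPM in Control, against 131, 128 and 127 CPM with FAC, 153, 154 and 160 CPM with Lip-1+FAC, and 155, 163 and 154 CPM with MT+FAC. The fitted change was -0.32 on the log2 scale (SE 0.0511, edgeR adjusted p = 9.41e-05), and all FAC libraries lay below all others. The list had a median log2 fold change of 0.04 in FAC, with 3 of 11 (27.3%) at an unadjusted p under 0.05. The background at that limit was 45 percent of all genes tested and 52.9 percent of genes at 3 CPM or more. In Lip-1+FAC against FAC 2 rose and 2 fell (36.4% called, background 39.9 percent of all genes tested), and in MT+FAC against FAC 1 rose and 0 fell (9.09% called, background 40.9 percent).

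Of the 13 members that contain a snoRNA or Cajal-body RNA, 5 rose and 0 fell in FAC against Control, with a median log2 fold change of 0.40. The called share, 38.5%, was below the 44.7 percent of genes at 3 CPM or more, of which 21.2 percent were higher and 23.4 percent lower. In Lip-1+FAC against FAC 0 rose and 8 fell (61.5% called, background 47.4 percent, with 21.7 percent lower), with a median of -0.49. The host counts in MT+FAC against FAC were 0 higher and 9 lower (69.2% called, background 48.9 percent, with 22.9 percent lower), with a median of -0.67. The hosts as a class were not tested. The 5 that rose were Snhg15, Snhg17, Snhg20, 2410006H16Rik and Snhg1. Snhg1 was called at an adjusted p of 0.0499 and not called when any 1 of its 6 libraries was left out (adjusted p = 0.0524 to 0.199). Snhg20 was not called without Control replicate 1 or 2 or FAC replicate 1 or 2 (adjusted p = 0.0653 to 0.0992). Against Control, 3 hosts rose and 2 fell in Lip-1+FAC (38.5% called, background 37.6 percent), and 2 rose and 2 fell in MT+FAC (30.8% called, background 25.2 percent), both near the background.

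Snhg15 (ENSMUSG00000085156, chr11:6525591-6528760, - strand) contains Snora9 and had the largest rise of the hosts. Its level was 18.7, 18.3 and 23.6 CPM in Control, against 37.7, 36.3 and 32.7 CPM with FAC, 26.6, 23.7 and 25.9 CPM with Lip-1+FAC, and 24.4, 23.7 and 24.7 CPM with MT+FAC. The FAC libraries lay above all others, and the pretreated libraries lay between FAC and Control. In log2 units the change was 0.83 in FAC against Control (SE 0.101, edgeR adjusted p = 5.19e-06), -0.49 in Lip-1+FAC against FAC (adjusted p = 0.00076) and -0.57 in MT+FAC against FAC (adjusted p = 0.000183). Snhg17 followed the same order of groups, with 15.6 ± 1.22 CPM in Control, 24.7 ± 2.85 with FAC, 20.5 ± 0.467 with Lip-1+FAC, and 20.2 ± 0.704 with MT+FAC (SD, n = 3), and rose by 0.69 in FAC (adjusted p = 2.99e-05).

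The promoter window of Snhg15, 250 bases before to 50 after its RefSeq start (GRCm38.p6, chr11:6528711-6529010, - strand), is shown because the gene rose in all FAC libraries and holds a full cAMP response element, the site of the CREB and ATF family, in capitals, and an E-box further on, also in capitals. The windows of 91 of the 132 members were in the table and were searched on both strands for TATAAA, TGACGTCA (the cAMP response element, first base 88 bases before the start of Snhg15), TGACNNNGC (the core of the antioxidant response element), TGANTCA (the AP-1 element) and CACGTG (the E-box, first base 12 bases after the start). A single stretch can match both TGACNNNGC and TGANTCA. Among all 32851 windows 13.6%, 1.79%, 12.4%, 7.81% and 7.15% held them, and among the 91 members 13.2%, 4.40%, 14.3%, 6.59% and 12.1%. Of members called in FAC against Control, TGACGTCA was held by 2 of 17 called higher and 2 of 27 called lower. For CACGTG these numbers were 3 of 17 and 1 of 27. The part of these motifs in the levels of Snhg15 or other members was not tested. The windows of Mir22hg and Gm10030 held none of these letters.
Snhg15: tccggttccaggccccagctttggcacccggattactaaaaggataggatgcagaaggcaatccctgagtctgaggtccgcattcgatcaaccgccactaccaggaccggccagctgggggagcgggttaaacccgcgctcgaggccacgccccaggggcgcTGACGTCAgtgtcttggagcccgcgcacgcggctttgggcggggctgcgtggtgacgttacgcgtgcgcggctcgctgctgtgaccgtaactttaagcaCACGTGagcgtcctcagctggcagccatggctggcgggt

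A second set of hosts fell below Control after pretreatment. 2410006H16Rik, which contains Snord49a, Snord49b and Snord65 and starts at the pyrimidine run shown above, had 22.8, 19.8 and 24.9 CPM in Control, against 30.0, 30.8 and 32.3 CPM with FAC, 16.0, 15.7 and 11.8 CPM with Lip-1+FAC, and 13.5, 12.6 and 12.1 CPM with MT+FAC. The groups did not overlap, apart from the pretreated pair, whose ranges overlapped. It rose by 0.48 in FAC (SE 0.112, edgeR adjusted p = 0.00246) and was 1.10 lower in Lip-1+FAC and 1.31 lower in MT+FAC than in FAC (adjusted p = 8.15e-07 and 1.99e-07). Against Control it was 0.61 and 0.82 lower (adjusted p = 0.000627 and 0.000105). Snhg6, host of Snord87, had on average 11.3 ± 2.48 CPM in Control, 13.9 ± 1.69 with FAC, 7.48 ± 0.499 with Lip-1+FAC, and 6.5 ± 0.822 with MT+FAC (± SD of 3 libraries, n = 3). It was not called in FAC against Control (log2 fold change 0.31, adjusted p = 0.123) and fell by 0.89 and 1.11 in the pretreated groups against FAC. It shares 11.1% of its exonic bases with other genes.

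Gas5, the most abundant of the Snhg type of hosts and a carrier of several snoRNAs, shares 17.8% of its exonic bases with other genes, and Zbtb37 overlaps it on the other strand. It had 104, 86.1 and 113 CPM in Control, against 123, 102 and 130 CPM with FAC, 99.4, 85.7 and 67.1 CPM with Lip-1+FAC, and 75.3, 73.6 and 77.9 CPM with MT+FAC. Control and FAC overlapped, and every pretreated library lay below every FAC library. The fitted log2 difference was 0.24 in FAC against Control (SE 0.141, edgeR adjusted p = 0.211), -0.49 in Lip-1+FAC against FAC (adjusted p = 0.016) and -0.67 in MT+FAC against FAC (adjusted p = 0.00286). Zfas1, host of Snord12, and 1110038B12Rik, host of Snord52 (named for its class), gave -0.49 and -0.50 in Lip-1+FAC against FAC and -0.74 and -0.69 in MT+FAC against FAC, all called. Snhg5, AI506816 and Cct6a were not called in any comparison. AC121821.1, host of Snora74a, was 0.59 and 0.75 higher than Control in Lip-1+FAC and MT+FAC (adjusted p = 0.0425 and 0.016), with 12.6% of its exonic bases shared with other genes.

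**Figure D4:**
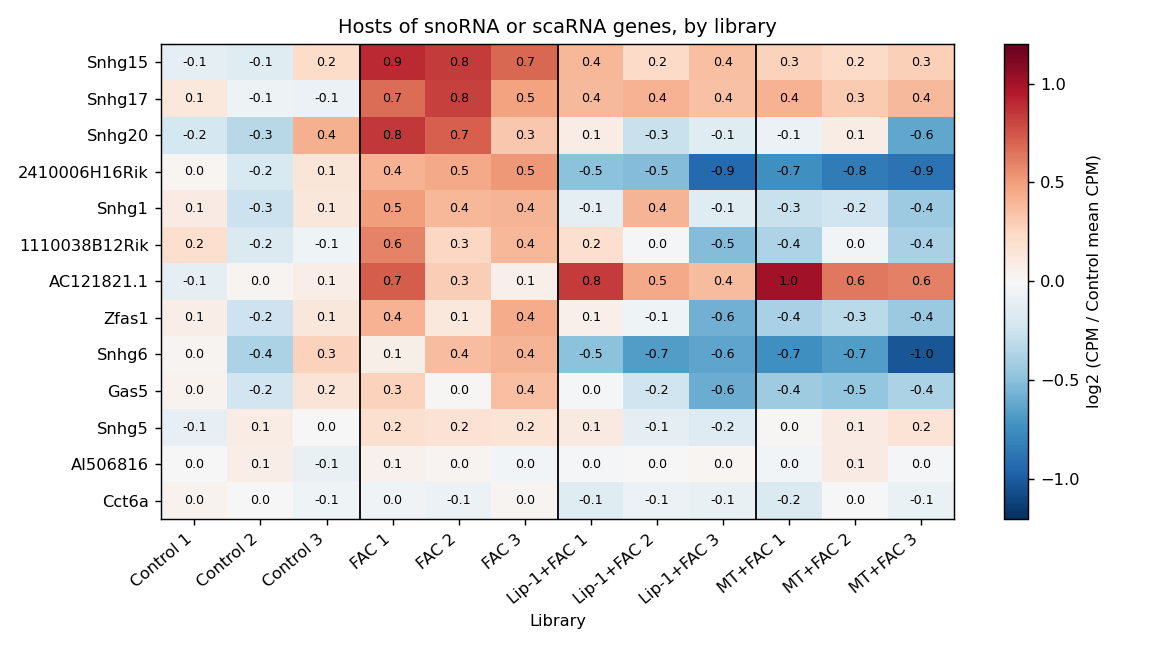
Heat map of log2(CPM / mean CPM in Control) for the 13 hosts of snoRNAs and Cajal-body RNAs (rows) in the 12 libraries (columns), with the value printed in each cell. The FAC columns are above 0 for most hosts, the pretreated columns of 2410006H16Rik and Snhg6 are below 0, and AI506816 and Cct6a stay near 0 throughout.

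Nonsense-mediated decay is the pathway known to degrade spliced products of many snoRNA hosts. Of 10 listed factors, all tested, 5 rose and 0 fell in FAC against Control, among them Smg1 and Upf1. That is 50% called, against 36.6 percent of all genes tested and 44.7 percent of genes at 3 CPM or more, with 21.2 percent higher among the latter. The list was not tested as a set. Smg1, the kinase that phosphorylates Upf1, had 24.2, 23.5 and 21.2 CPM in Control, against 50.9, 55.4 and 39.6 CPM with FAC, 34.4, 32.8 and 35.2 CPM with Lip-1+FAC, and 31.3, 32.6 and 26.4 CPM with MT+FAC. The FAC libraries were above all others and the pretreated libraries above Control, with log2 fold changes of 1.10 in FAC against Control (SE 0.111, edgeR adjusted p = 6.91e-07), -0.52 in Lip-1+FAC against FAC and -0.72 in MT+FAC against FAC. It was the 1 of 10 that fell in each of the latter comparisons. Of 14 listed subunits and adaptors of the nuclear exosome, which degrades many lncRNAs, 2 rose (Zfc3h1, Pabpn1) and 3 fell (Exosc4, Exosc7, Zcchc8) in FAC against Control, or 35.7% called. In Lip-1+FAC against FAC 4 rose and 1 fell (35.7% called, background 39.9 percent of all genes tested), and in MT+FAC against FAC 5 rose and 1 fell (42.9% called, background 40.9 percent), both near the background.

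Of the 3 hosts of microRNAs, 1 rose, 1 fell and 1 was not called in FAC. With 3 genes, this share (66.7%) stands beside 36.6 percent of all genes tested and 44.7 percent of genes at 3 CPM or more. Among the latter 21.2 percent were higher and 23.4 percent lower. Mir22hg (ENSMUSG00000085148, chr11:75461539-75466676, + strand), the primary transcript of the miR-22 forms shown above, had 26.5, 24.4 and 26.8 CPM in Control, against 51.5, 45.5 and 37.7 CPM with FAC, 29.6, 31.9 and 33.5 CPM with Lip-1+FAC, and 28.9, 30.2 and 30.0 CPM with MT+FAC. All FAC libraries lay above all others, and all pretreated libraries above Control. It rose by 0.81 in FAC (SE 0.0977, edgeR adjusted p = 4.9e-06) and was 0.51 and 0.62 lower in Lip-1+FAC and MT+FAC than in FAC (adjusted p = 0.000419 and 6.74e-05). Tlcd2, a gene of membrane lipid composition that lies on the same strand and starts 176 bases away, fell by 0.42 in FAC (adjusted p = 0.00054). Mir22hg shares 10.7% of its exonic bases with other genes. Mature microRNAs are not captured by this library type and were not measured.

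AC157910.3 (ENSMUSG00000118017, chr18:65244287-65252621, + strand, 3 exonic blocks) contains Mir122, the microRNA that is abundant in hepatocytes. It had 30.4, 26.8 and 33.9 CPM in Control, against 5.69, 8.78 and 7.46 CPM with FAC, 6.999, 8.11 and 10.1 CPM with Lip-1+FAC, and 13.98, 12.3 and 13.6 CPM with MT+FAC. Every treated library lay below every Control library, Lip-1+FAC overlapped FAC, and MT+FAC lay above both. The log2 fold change came to -2.02 in FAC against Control (SE 0.155, edgeR adjusted p = 3.88e-08), a 4.06-fold fall. Against FAC it was 0.18 in Lip-1+FAC (adjusted p = 0.391) and 0.82 in MT+FAC (adjusted p = 0.000472), and the direct difference of MT+FAC from Lip-1+FAC was 0.64 (SE 0.157, adjusted p = 0.0525). Both pretreated groups were below Control, with -1.84 and -1.2 on the log2 scale (adjusted p = 1.69e-07 and 3.42e-05). Dleu2, which contains the miR-15a and miR-16 forms shown above, had means of 3.89, 3.87, 4.26 and 3.21 CPM in the 4 groups and was not called in any comparison.

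The summed level of 9 of 10 listed hepatocyte markers was 20177 to 20702 CPM in Control, 18945 to 19798 CPM in FAC, 15467 to 16526 CPM in Lip-1+FAC and 16150 to 17579 CPM in MT+FAC. Alb was the largest part of this sum, with means of 9666 CPM in Control and 9796 CPM in FAC, and the markers moved in different directions. In FAC against Control Cps1 fell, from 1703 to 706 CPM, and Fgb fell, while Cyp2e1 and Apob rose. Against FAC, Cyp2e1 fell by 1.66 and Serpina1a by 1.34 on the log2 scale in Lip-1+FAC, and Cps1 rose by 0.54. The lowest group mean of the 9 was that of Serpina1a in MT+FAC, 102 CPM. The 8 Kupffer cell markers, 2 of them at a mean of 1 CPM or more, summed to 7.92 to 14.5 CPM. The 7 stellate cell markers, 2 of them at 1 CPM or more, summed to 9.30 to 14.6 CPM in Control, 18.8 to 19.5 CPM in FAC, 7.83 to 9.29 CPM in Lip-1+FAC and 9.15 to 10.02 CPM in MT+FAC. Of these 2, Reln had means of 7.496 CPM in Control and 15.9 CPM in FAC (edgeR adjusted p = 4.54e-05), while Dcn fell, from 3.57 to 2.32 CPM (edgeR adjusted p = 0.0381). The 7 sinusoidal endothelial markers, 5 of them at 1 CPM or more, summed to 33.3 to 35.7 CPM in Control and FAC and 26.4 to 30.9 CPM in the pretreated groups. Of these, Stab2 fell against FAC (means of 26.3 CPM in FAC, 17.8 CPM with Lip-1+FAC and 19.4 CPM with MT+FAC), while Fcgr2b rose by 1.10 and 0.95 on the log2 scale (edgeR adjusted p = 0.0152 and 0.0324), and Kdr and Pecam1 were not called. The 6 cholangiocyte markers, 3 of them at 1 CPM or more, summed to 58.7 to 69.8 CPM in Control, 97.6 to 122 CPM in FAC, 110 to 124 CPM in Lip-1+FAC and 105 to 145.7 CPM in MT+FAC. Its members differed: Spp1 had means of 40.9, 43.2, 100.7 and 103.5 CPM in Control, FAC, Lip-1+FAC and MT+FAC, and Sox9 had 17.5, 52.99, 11.9 and 15.2 CPM. Krt19, Krt7 and Epcam were higher in FAC than in the other groups, as Sox9 was. None of the markers was at 0 in every library. Their part in the levels of the members was not tested. Gene-assigned counts were 22991598 to 31683376 per library, apart from FAC replicate 2 with 52529278, whose file is marked as combined.

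Among imprinted lncRNAs, 2 of the 8 listed were members. Peg13 (chr15:72805600-72810324, - strand), which lies inside Trappc9, had 9.42, 11.005 and 7.72 CPM in Control, against 4.28, 6.24 and 6.43 CPM with FAC, 11.1, 9.43 and 10.4 CPM with Lip-1+FAC, and 13.6, 12.1 and 9.35 CPM with MT+FAC. FAC lay below all other groups, which overlapped. It fell by 0.71 in FAC (SE 0.175, edgeR adjusted p = 0.00406) and was 0.86 and 1.02 higher in Lip-1+FAC and MT+FAC than in FAC, while Trappc9 had a log2 fold change of 0.07 in FAC (adjusted p = 0.636). Kcnq1ot1, the antisense RNA of the Kcnq1 domain, whose single exonic block covers 93092 bases, rose by 0.47 in FAC, from 9.88 ± 1.12 to 13.5 ± 1.49 CPM (SD, n = 3, adjusted p = 0.0183). It was not called without Control replicate 2 or FAC replicate 2 (adjusted p = 0.0846 and 0.0918).

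The largest falls in FAC were those of Gm10030, Gm17753, AC157910.3, Gm46516 and 0610005C13Rik, and 4 of these 5 were higher again in both pretreated groups than in FAC. They were chosen by low levels in the same FAC libraries, so that a rise from FAC is favoured by the choice. Of genes at 3 CPM or more, 25.7 percent were higher in Lip-1+FAC than in FAC and 26 percent in MT+FAC. Gm10030 (ENSMUSG00000057802, chr9:110989499-111008029, + strand) runs across Rtp3 on the other strand and starts 1084 bases from it. It had 5.95, 7.36 and 6.62 CPM in Control, against 1.38, 1.16 and 1.04 CPM with FAC, 7.11, 6.25 and 5.48 CPM with Lip-1+FAC, and 7.13, 6.18 and 5.57 CPM with MT+FAC. FAC lay far below the other 3 groups, and those overlapped one another. On the log2 scale the difference was -2.46 in FAC against Control (SE 0.183, edgeR adjusted p = 2.04e-08), a 5.5-fold fall. It was 2.39 in Lip-1+FAC against FAC and 2.38 in MT+FAC against FAC (adjusted p = 2.59e-08 and 4.51e-08). Against Control the pretreated groups gave -0.06 and -0.08 (adjusted p = 0.793 and 0.763). Rtp3, a liver gene of receptor trafficking, changed by -2.99 in FAC, by 2.30 in Lip-1+FAC against FAC and by 2.31 in MT+FAC against FAC, and 14.3% of the exonic bases of Gm10030 are shared.

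Gm46516 (chr15:55923402-55960906, + strand) had 4.37, 3.87 and 3.35 CPM in Control, against 1.23, 1.18 and 0.559 CPM with FAC, 4.65, 5.39 and 4.39 CPM with Lip-1+FAC, and 5.52, 2.80 and 3.87 CPM with MT+FAC. FAC again stood below all others, with log2 fold changes of -1.90, 2.24 and 1.97 in FAC against Control, Lip-1+FAC against FAC and MT+FAC against FAC (edgeR adjusted p = 3.77e-05, 4.6e-06 and 2.33e-05). Gm46516 met the level rule through Lip-1+FAC, so that its difference from that group is not independent of the choice. 4933431E20Rik, which starts 392 bases from the glutathione transferase gene Gstm5 on the other strand, fell by 1.09 in FAC and was 1.63 and 1.53 higher in Lip-1+FAC and MT+FAC than in FAC. Gstm5 was not called in these comparisons, with log2 fold changes of -0.23, 0.08 and 0.07.

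Gm17753 and 0610005C13Rik were higher in the pretreated groups than in FAC but remained below Control. Gm17753 (chr15:79015329-79025782, - strand) had 6.64, 6.83 and 6.501 CPM in Control, against 0.87, 1.69 and 1.84 CPM with FAC, 3.75, 2.86 and 3.81 CPM with Lip-1+FAC, and 4.51, 3.67 and 3.26 CPM with MT+FAC. The groups did not overlap except for the pretreated pair. The fitted log2 fold change was -2.15 in FAC against Control (SE 0.228, edgeR adjusted p = 1.16e-06), 1.22 and 1.34 in Lip-1+FAC and MT+FAC against FAC, and -0.92 and -0.80 in Lip-1+FAC and MT+FAC against Control (adjusted p = 0.00308 and 0.012). It starts 2668 bases from H1f0, a linker histone gene, which fell by 0.59 in FAC. Gm17753 met the level rule through Control, so that its differences from that group are not independent of the choice.

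0610005C13Rik (ENSMUSG00000109644, chr7:45567794-45575327, - strand), which lies across from Bcat2 on the other strand, had 13.8, 12.1 and 16.7 CPM in Control, against 4.49, 3.79 and 4.39 CPM with FAC, 6.53, 7.61 and 7.53 CPM with Lip-1+FAC, and 9.15, 8.02 and 8.52 CPM with MT+FAC. All 4 groups were separate, in the order FAC, Lip-1+FAC, MT+FAC and Control. The step between the pretreated groups was not called (log2 fold change 0.23, edgeR adjusted p = 0.537). The others were -1.74 in FAC against Control (SE 0.144, adjusted p = 7.19e-08), 0.78 and 1.01 in Lip-1+FAC and MT+FAC against FAC, and -0.96 and -0.74 in the same groups against Control. Bcat2, which encodes a branched-chain amino acid aminotransferase, gave -1.68 in FAC against Control, with 17.4% of the exonic bases of the lncRNA shared.

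Among called members and besides Neat1, the largest rises in FAC were those of Map2k3os, AC154492.2, Gm6093 and 2310034O05Rik. Map2k3os, which starts 166 bases from the stress kinase gene Map2k3 on the other strand (chr11:60920917-60931867, - strand), had 4.97, 5.20 and 4.41 CPM in Control, against 10.8, 10.6 and 8.78 CPM with FAC, 10.3, 10.001 and 10.3 CPM with Lip-1+FAC, and 7.61, 6.92 and 7.52 CPM with MT+FAC. Control was below all treated libraries, Lip-1+FAC lay within the range of FAC, and MT+FAC lay between. It rose by 1.07 in FAC (SE 0.128, edgeR adjusted p = 4.44e-06), gave 0.01 in Lip-1+FAC against FAC (adjusted p = 0.938) and was 0.48 lower in MT+FAC than in FAC (adjusted p = 0.00444). The direct difference of MT+FAC from Lip-1+FAC was -0.50 (SE 0.123, adjusted p = 0.055). Map2k3 rose by 0.42 in FAC. AC154492.2, inside Rhoq, rose by 1.05 in FAC, gave -0.27 in Lip-1+FAC against FAC (adjusted p = 0.295) and was 0.87 lower in MT+FAC than in FAC (adjusted p = 0.00251). Gm6093 rose by 0.84 in FAC and was 1.23 and 1.21 lower in Lip-1+FAC and MT+FAC than in FAC.

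Some members differed between pretreated cells and both other groups. Gm19950 (ENSMUSG00000109093, chr7:119607681-119643469, - strand), across from Acsm1, a mitochondrial acyl-CoA synthetase gene, had 2.57, 2.81 and 3.39 CPM in Control, against 2.83, 2.91 and 2.16 CPM with FAC, 13.1, 11.2 and 7.70 CPM with Lip-1+FAC, and 11.96, 7.12 and 7.05 CPM with MT+FAC. Control and FAC overlapped and every pretreated library was above both. In log2 units the change was -0.12 in FAC against Control (adjusted p = 0.754), 2.00 in Lip-1+FAC against FAC (SE 0.233, edgeR adjusted p = 4.44e-06) and 1.69 in MT+FAC against FAC (SE 0.234, adjusted p = 3.07e-05). Against Control it was 1.88 and 1.57 (adjusted p = 1.73e-05 and 0.000265). Acsm1 gave 1.44 and 1.16 against FAC, and no exonic bases are shared. The level of Gm19950 without FAC but with a scavenger was not measured.

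In the other direction, Gm34059, A730020M07Rik, 9030625G05Rik, Gm27216 and AC160336.1 were lower in at least 1 pretreated group than in FAC. Gm34059 had on average 3.83 ± 0.298 CPM in Control, 6.27 ± 0.863 with FAC, 1.63 ± 0.450 with Lip-1+FAC, and 2.59 ± 0.980 with MT+FAC (± SD of 3 libraries, n = 3), a log2 fold change of -1.95 in Lip-1+FAC against FAC (SE 0.255, edgeR adjusted p = 9.12e-06). A730020M07Rik and 9030625G05Rik gave -1.41 and -1.32 in the same comparison and were not called in FAC against Control. Gm27216 fell by 1.13 in MT+FAC against FAC (adjusted p = 0.00041). AC160336.1, a single block of 93147 bases with 0.0333 CPM per kb, gave -2.09 in Lip-1+FAC against FAC (SE 0.652, adjusted p = 0.0283). That call was lost without FAC replicate 1 or 3 or any Lip-1+FAC replicate (adjusted p = 0.0516 to 0.0953). Gm34059, A730020M07Rik and AC160336.1 met the level rule through FAC, and 9030625G05Rik through Control. Their differences from these groups are not independent of the choice.

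Between the pretreatments 1 member was called, and it met the level rule through Lip-1+FAC, with a mean of 2.56 CPM over the other 3 groups. 2310034O05Rik (ENSMUSG00000100157, chr5:100210692-100218049, + strand), a lincRNA of 4 exonic blocks whose nearest protein-coding start is 50884 bases away, had 1.84, 1.67 and 1.69 CPM in Control, against 3.37, 2.76 and 3.07 CPM with FAC, 9.78, 9.001 and 8.37 CPM with Lip-1+FAC, and 3.09, 3.03 and 2.48 CPM with MT+FAC. Lip-1+FAC lay above all other libraries, FAC and MT+FAC overlapped, and Control was below them. In MT+FAC against Lip-1+FAC the fitted difference was -1.67 on the log2 scale (SE 0.16, edgeR adjusted p = 3.46e-05), a 3.19-fold difference. The background of this comparison was 1.34 percent of all genes tested and 1.8 percent of genes at 3 CPM or more, with 0.6 percent higher and 1.2 percent lower among the latter. The gene changed by 0.83 in FAC against Control, 1.57 in Lip-1+FAC against FAC and -0.11 in MT+FAC against FAC (adjusted p = 0.639). At an unadjusted p under 0.05 the comparison gave 18 of 132 members (13.6%, background 13.3 percent of all genes tested and 16.3 percent of genes at 3 CPM or more), and DESeq2 called 5. Libraries did not overlap for 28 members (21.2%), where the background was 20.3 percent of all genes tested and 23.5 percent of genes at 3 CPM or more.

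Members next to protein-coding genes were compared with those genes. Each of 63 pairs joined a member with a tested protein-coding gene that overlapped it or started within 5 kb of its start. In FAC against Control 31 of the members and 30 of the partners (47.6%) were called, against 39.6% of all protein-coding genes tested. Both were called in 17 pairs, 12 in the same direction and 5 in opposite directions. The member alone was called in 14 pairs and the partner alone in 13. Where less than 10% of the exonic bases were shared, both were called in 9 pairs, 6 of them in the same direction. Pairs that fell together included Gm10030 with Rtp3, 0610005C13Rik with Bcat2 and Gm17753 with H1f0. Chosen after its values were seen, Gm11789, across from the glucagon receptor gene Gcgr, fell by 1.17 while Gcgr fell by 0.78. Gm11789 and Gm17753 met the level rule through Control, so that their falls are not independent of the choice. Opposite directions were seen in Tug1 with Morc2a and Mir22hg with Tlcd2, and, also chosen after their values were seen, in 4930581F22Rik with St3gal4, Gm11714 with Pitpnc1 and 4930556M19Rik with Rai14.

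In Lip-1+FAC against FAC 27 members and 32 partners were called, both in 13 pairs, 11 of them in the same direction (background 42.6% of protein-coding genes tested). With MT+FAC against FAC 33 members and 32 partners were called, both in 20 pairs, 13 of them in the same direction (background 43.8%). Against Control 24 members and 30 partners were called in Lip-1+FAC, both in 17 pairs, 13 in the same direction (background 33.0%). For MT+FAC against Control 15 members and 19 partners were called, both in 6 pairs, 5 in the same direction (background 21.7%). In MT+FAC against Lip-1+FAC 0 members of the pairs and 2 partners were called (background 1.52%).

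**Figure D5:**
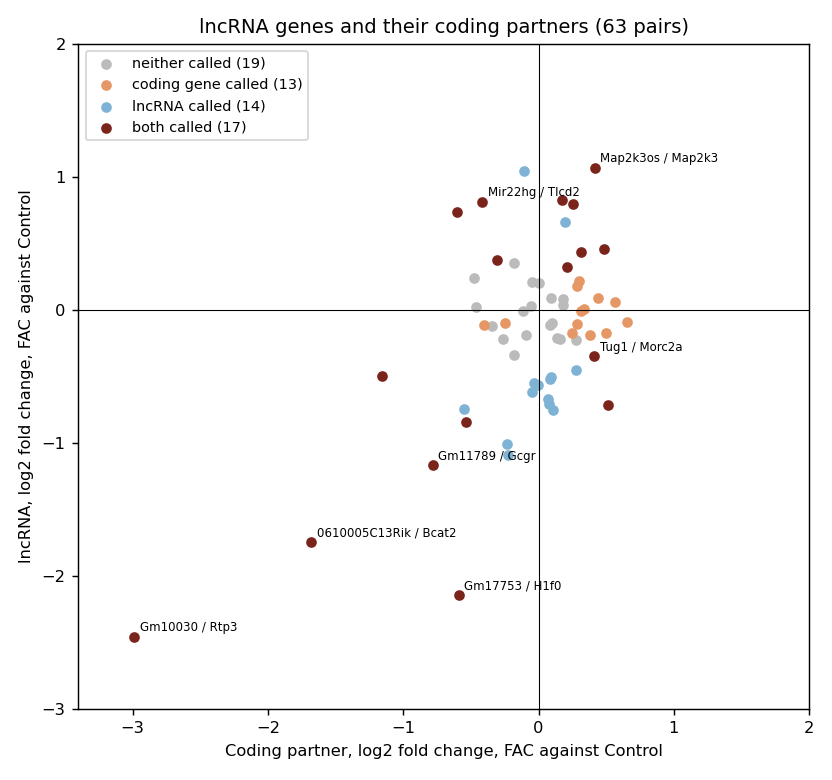
Log2 fold change of the member (one axis) and of its protein-coding partner (other axis) in FAC against Control for the 63 pairs, marked by which of them was called (both 17, member only 14, partner only 13, neither 19). Gm10030 with Rtp3 and 0610005C13Rik with Bcat2 lie far out in the corner where both are lower, and Mir22hg with Tlcd2 and Tug1 with Morc2a lie in the opposite quadrants.

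By the classes above, in which hosts come first, 13 of the 29 members classed by a start within 1 kb of a protein-coding start on the other strand were called in FAC against Control (44.8%), a share near the 44.7 percent of genes at 3 CPM or more. Of these 2 were higher and 11 lower, where 21.2 percent and 23.4 percent of such genes were. In this class 8 were higher and 2 lower in Lip-1+FAC against FAC (background 25.7 percent and 21.7 percent), and 8 higher and 4 lower in MT+FAC against FAC (background 26 percent and 22.9 percent). Among the 24 classed by overlap with a protein-coding gene on the other strand, 11 were called in FAC against Control (45.8%), 5 higher and 6 lower, again near the background. Against Control 1 of these 24 rose and 10 fell in Lip-1+FAC (background 19.7 percent and 17.9 percent), and 1 rose and 8 fell in MT+FAC (background 12.5 percent and 12.7 percent). In the same 2 comparisons the 57 members with none of these relations gave 4 higher and 14 lower, and 4 higher and 11 lower. The 29 gave 5 higher and 5 lower, and 1 higher and 3 lower. Against FAC, the 24 gave 5 higher and 6 lower in Lip-1+FAC, and 5 higher and 9 lower in MT+FAC. The 57 members with none of these relations gave 7 higher and 19 lower in FAC against Control (45.6% called), 20 higher and 13 lower in Lip-1+FAC against FAC (57.9% called, background 47.4 percent), and 14 higher and 15 lower in MT+FAC against FAC (50.9% called, background 48.9 percent). Of the 6 classed by overlap with a coding gene on the same strand, 3 rose and 2 fell in FAC (83.3% called, background 44.7 percent). Counted without the order of classes, 3 of 33 members with such a start were higher and 11 lower in FAC against Control (42.4% called), and 6 of 46 that overlap a coding gene on the other strand were higher and 14 lower (43.5% called). Against Control, 5 of these 46 rose and 14 fell in Lip-1+FAC (41.3% called, background 37.6 percent), and 1 rose and 12 fell in MT+FAC (28.3% called, background 25.2 percent). No class was tested against the other members.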

How the data were processed

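Polyadenylated RNA of 12 libraries was amplified from 10 ng of total RNA with SMART-Seq v4, an oligo-dT kit that does not mark strand, and sequenced in pairs, per the labels' protocols. The authors deposited raw read counts per gene, in the layout of STAR, with GRCm38 named in the submitters' processing notes. The aligner version and the annotation release are not given in the sources used here. Biotypes and positions were taken from GENCODE M21 (GRCm38), and 55227 of 55487 gene identifiers matched. The unstranded column was used: each of its companion columns held about an equal share of the strand-specific counts.

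Genes kept by filterByExpr (13535, with 99.94% of the counts) were fitted over all 12 libraries with edgeR 4.0.16 (TMM scaling, robust quasi-likelihood test, R 4.3.3), and p-values of each of 6 comparisons were adjusted by Benjamini-Hochberg over all genes. Log2 fold changes carry the error SE, and the threshold was an adjusted p of 0.05. Shares of counts were compared by exact two-sided permutation tests. Near-identical sequences in transcripts of other genes, overlapping genes included, were searched with blastn 2.17.0+ (identity of at least 95% over at least 50% of the transcript). On simulated counts 98% of 200 genes changed by a log2 fold of 1 were recovered in FAC against Control, and 7.98% of the calls were false, over 11578 genes. The simulation gave all genes a common spread, left out genes of lowest counts and changed few genes. These rates therefore need not hold for the data, where spread differs between genes and many genes were called. PCR reads without molecular identifiers are not independent molecules.

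The rule for members, which uses the mean level over all libraries, and the gene lists were chosen with earlier results of these data known. Named genes were the members of highest mean level, those of largest change in FAC against Control, in the pretreated groups against FAC and between the pretreatments, and members of the listed families. Alternatives were other scalings, filters, DESeq2 1.42.0, the summed stranded columns, a replicate block, only the libraries compared, other member limits and each replicate left out.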

Additional observations from a re-analysis of the deposited data

Results flagged for a closer look

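The lincRNA 2310034O05Rik was singled out because its effects under the 2 pretreatments differed in a direct test. Its log2 fold change in MT+FAC against Lip-1+FAC was -1.67 (SE 0.16, edgeR adjusted p = 3.46e-05), with all 3 MT+FAC libraries below all 3 Lip-1+FAC libraries. The gene met the level rule through Lip-1+FAC, with a mean of 2.56 CPM over the other groups. Its difference from Lip-1+FAC is therefore not independent of the choice of members.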

How the results depend on the processing

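Counts of called members in FAC against Control, in both pretreated groups against FAC and in Lip-1+FAC against Control stayed within 1.5 times of the reported count under every other scaling, filter, tool, block and left-out replicate. In MT+FAC against Lip-1+FAC the count of 1 became 2 with upper-quartile scaling, 4 with no filter, 3 with a filter at a mean of 3 CPM, 5 with DESeq2, 3 with the stranded columns, 3 with only the 6 libraries compared, and 1 to 2 when each replicate was left out. In MT+FAC against Control leaving out each replicate gave 23 to 37 calls, against ranges of 50 to 58 in FAC against Control, 38 to 46 in Lip-1+FAC against Control, 53 to 60 in Lip-1+FAC against FAC and 57 to 64 in MT+FAC against FAC. The replicate numbers did not pair the libraries: same-number correlations of deviations ran from -0.249 to 0.164, 4 of 12 libraries correlated best with their own number, and with the replicate block 61, 65, 67, 2, 48 and 36 members were called in FAC against Control, Lip-1+FAC against FAC, MT+FAC against FAC, MT+FAC against Lip-1+FAC, Lip-1+FAC against Control and MT+FAC against Control. Dleu2 turned to -0.00725 under that block. Other member limits change how many genes can be called. The share of all genes called at those limits or under the other settings is not given here. The counts at those limits and settings therefore cannot be set against other genes of like level. Lowering the limit to a mean of 1 CPM (314 genes) gave 100, 111, 119, 90 and 58 calls, or 31.8%, 35.4%, 37.9%, 28.7% and 18.5%, in FAC against Control, Lip-1+FAC against FAC, MT+FAC against FAC, Lip-1+FAC against Control and MT+FAC against Control, raising it to 10 CPM (41 genes) gave 18, 19, 23, 15 and 13 calls, and MT+FAC against Lip-1+FAC gave 0 at 10 CPM and at 3 CPM in the lowest group. For the share of counts held by the members, leaving out the 3 most abundant gave a difference of -0.00367 percentage points for FAC against Control and -0.0039 for MT+FAC against Lip-1+FAC, moved Lip-1+FAC and MT+FAC against Control from -0.00238 each (exact permutation p = 0.7) to -0.0243 and -0.0282 (p = 0.1), and moved them against FAC from -0.0578 each to -0.0206 and -0.0245 (p = 0.1), and the stranded columns gave 0.00524 for MT+FAC against Control. Leaving out replicates gave 0.0505 to 0.0624 for FAC against Control, -0.0648 to -0.0541 for each pretreated group against FAC, -0.00724 to 0.00284 for each against Control and -0.00455 to 0.00387 between the pretreatments. Values near 0 changed sign in FAC against Control for Cct6a (0.0124 with RLE, 0.00647 with no filter, 0.00228 with the 3 CPM filter, 0.00833 with DESeq2, 0.019 with stranded columns, 0.0105 with only the 6 libraries, -0.039 to 0.0215 with each replicate left out), AI506816 (-0.00202 to 0.0727), 1810058I24Rik (-0.0371 to 0.14) and Dleu2 (-0.106 to 0.192), the last 3 with each replicate left out. The causes were not tested. Of the 40 called values of named members, 34 kept their call under every alternative. The recovery of changes smaller than a log2 fold of 1 was not tested.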

Other observations

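Some listed lncRNA hosts lay below the limit of 3 CPM, or outside the lncRNA biotypes, and are given as values. Those described are hosts with called changes. Others, such as Dancr and Snhg14, were not called in FAC against Control or in either pretreated group against FAC. Of these comparisons, Snhg8 was called only in MT+FAC against FAC. Mir17hg, the host of the miR-17 cluster (mean 2.81 CPM), had 1.37, 1.56 and 2.01 CPM in Control, against 5.18, 5.54 and 3.63 CPM with FAC, 3.14, 2.68 and 2.51 CPM with Lip-1+FAC, and 2.52, 1.77 and 1.78 CPM with MT+FAC. All FAC libraries lay above all others, and the gene rose by 1.56 on the log2 scale from Control to FAC (edgeR adjusted p = 4.06e-05), with -0.79 in Lip-1+FAC against FAC (adjusted p = 0.0074) and -1.26 in MT+FAC against FAC (adjusted p = 0.000223). Snhg11, annotated here as protein-coding, had 2.57, 1.78 and 2.36 CPM in Control, against 2.32, 2.25 and 2.59 CPM with FAC, 15.2, 8.97 and 10.8 CPM with Lip-1+FAC, and 12.1, 6.47 and 9.09 CPM with MT+FAC. Control and FAC overlapped and every pretreated library lay above both, with log2 fold changes of 2.29 and 1.93 against FAC (adjusted p = 1.4e-06 and 1.03e-05). Epb41l4aos and Snhg12, both snoRNA hosts, were 1.06 and 0.83 lower in Lip-1+FAC than in FAC and 1.17 and 1.22 lower in MT+FAC than in FAC.

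Chosen after its values were seen, Gm38416 fell by 1.2 in FAC against Control and was 1.29 and 1.25 higher in Lip-1+FAC and MT+FAC than in FAC. Gm15283, also chosen so, changed by 0.00 from Control to FAC and fell by 1.18 in Lip-1+FAC and by 1.07 in MT+FAC against FAC.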
